A study of Mus musculus with 6 samples.

Results

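The LY6 and urokinase receptor family is described here through 8 listed genes, Ly6a, Ly6d, Ly6e, Ly6g6c, Lypd3, Lynx1, Plaur and Plau, in sorted cells of chemically induced benign skin papillomas. A gene was taken from every probe set that the platform annotation gives to that symbol alone. This found 7 of the 8 genes on 12 probe sets, out of 13222 genes tested in the series. No probe set used here is annotated to Ly6a, the gene of the surface antigen Sca-1, so it was not analysed here. All 7 genes passed the filter on low values, with all 12 probe sets above the array's 40th percentile on 6 of 6 arrays. The genes were chosen by family, with both the log2 differences between genotypes and the spread within a genotype on these same arrays already known. Their values in that comparison are therefore given as a description, without a test of their own.

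The arrays were hybridised with RNA of Epcam+ alpha6 integrin+ tumour epithelial cells, sorted after exclusion of CD45, CD31 and CD140a. There were 3 arrays of K14CREER:SOX2fl/fl mice (Sox2cKO), in which tamoxifen activates a Cre recombinase under the keratin 14 promoter and thereby deletes the floxed Sox2 gene, and 3 arrays of control mice (CTRL). The series text speaks of 3 biological experiments. Mice of both groups received tamoxifen for 1 week, and the labels give neither the control genotype in more detail nor age or sex. The keratin 14 promoter acts in basal keratinocytes, so the deletion starts in cells that use it. Which of the sorted cells kept Sox2, and how many mice or tumours entered each array, is not given in the sources used here.

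LY6 and urokinase receptor proteins share a small disulphide-bonded fold with finger-like loops, and most are tied to the outer cell surface by a lipid (GPI) anchor. The urokinase receptor uPAR, the product of Plaur, binds the secreted protease urokinase (uPA, the product of Plau), which cuts plasminogen into the matrix-degrading protease plasmin. In skin this system is known from migrating keratinocytes at wound edges, while C4.4A, the product of Lypd3 and a structural relative of uPAR, is known from suprabasal keratinocytes. Plau itself encodes a serine protease and no LY6 domain, and stands here as the ligand of uPAR.

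The promoter sequences of Plaur, Ly6g6c and Lypd3 are shown because these genes had the array-to-array patterns described below, and they are the 3 of the 8 genes with an entry in the RefSeq promoter table (build GRCm38.p6). Each runs 5′ to 3′ on the gene's own strand, from 250 bases before the start to 50 after it. Capitals mark every match, on either strand, to 4 motifs. The letters searched were TGACTCA for the site of the AP-1 transcription factor and ATTGTT for the core bound by SOX proteins. The other letters were TATAAA for the TATA box, where transcription complexes assemble, and GGGCGG for the GC box, which binds SP family factors. The windows are chr7:24462233-24462532 (Plaur, plus strand), chr17:35067075-35067374 (Ly6g6c, plus strand) and chr7:24636320-24636619 (Lypd3, plus strand).
Plaur: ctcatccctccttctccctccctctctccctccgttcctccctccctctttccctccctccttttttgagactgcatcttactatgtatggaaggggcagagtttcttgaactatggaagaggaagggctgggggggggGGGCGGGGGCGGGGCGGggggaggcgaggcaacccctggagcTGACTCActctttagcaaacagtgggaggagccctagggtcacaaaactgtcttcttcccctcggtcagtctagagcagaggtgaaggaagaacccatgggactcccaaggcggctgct
Ly6g6c: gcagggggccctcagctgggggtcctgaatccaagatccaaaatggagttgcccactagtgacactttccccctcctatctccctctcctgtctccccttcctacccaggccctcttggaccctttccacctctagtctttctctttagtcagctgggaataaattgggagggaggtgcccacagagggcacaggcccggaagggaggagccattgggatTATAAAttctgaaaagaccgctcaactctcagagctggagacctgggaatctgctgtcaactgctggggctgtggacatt
Lypd3: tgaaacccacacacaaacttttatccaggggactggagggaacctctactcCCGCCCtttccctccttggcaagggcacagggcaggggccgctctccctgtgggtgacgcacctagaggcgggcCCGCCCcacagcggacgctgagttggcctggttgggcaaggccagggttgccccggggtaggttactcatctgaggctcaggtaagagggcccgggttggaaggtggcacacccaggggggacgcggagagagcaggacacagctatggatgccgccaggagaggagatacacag
The Plaur window holds 1 AP-1 match, beginning at base 182 counted from the 5′ end, and 3 GC boxes, the last of which overlaps the one before it by its first base. The Ly6g6c window holds 1 TATA box, beginning at base 221, and no GC box, while the Lypd3 window holds 2 GC boxes and no TATA box. Of 27025 promoters of the same length, 5.2% hold the AP-1 letters, 14.2% the TATA box and 35.9% the GC box. The SOX letters, held by 10.9% of promoters, are not in any of the 3 windows. These matches describe the sequences only.

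Epithelial genes were strongly expressed, as the sort label says, and fibroblast and leukocyte marker genes passed the filter on low values too. On the log2 scale of the deposited values, where unspiked bacterial control probe sets read 3.34 to 3.41, Krt14 averaged 14.10 in Sox2cKO and 14.04 in CTRL cells, Itga6 12.26 and 12.17, and Epcam 10.85 and 11.31. Of 7 endothelial genes Pecam1 (CD31), Cdh5, Tek and Emcn lay below the filter, while Kdr averaged 6.01 in Sox2cKO and 5.98 in CTRL cells, Esam 6.13 and 6.18, and Cldn5 5.39 and 5.23. Of 12 leukocyte genes 9 passed the filter. Ptprc (CD45) averaged 5.10 in Sox2cKO and 5.00 in CTRL cells, Cd14 8.60 and 8.27, Cd68 6.80 and 6.37, and Lyz2 6.16 and 5.73. Laptm5 averaged 7.17 and 7.24, and Csf1r 6.94 and 6.87, with other Csf1r probe sets at differences of 0.14 and 0.60. Of these 9 genes, 6 were higher and 3 lower in Sox2cKO, with a median difference of 0.10 and 0 called. No value of any gene is a true 0 on this scale. All 9 fibroblast and pericyte genes of the marker list passed the filter, and Pdgfra (CD140a), used for exclusion in the sort, averaged 6.32 ± 0.89 in Sox2cKO and 5.30 ± 0.24 in CTRL cells (SD, n = 3 each). Sox2 read 4.07, 4.63 and 3.23 in Sox2cKO replicates 1 to 3, against 7.19, 8.31 and 8.18 in CTRL replicates 1 to 3. Xist, the RNA of the inactive X chromosome, read 6.08 to 7.54 in Sox2cKO arrays and 7.30, 12.03 and 11.85 in CTRL arrays, so 0 of 3 Sox2cKO and 2 of 3 CTRL arrays had a female pattern. In bulk RNA of sorted cells, fewer cells of a type and less RNA per cell cannot be told apart.

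None of the 7 genes was called between genotypes. In limma, with Benjamini-Hochberg adjustment over all genes, 0 of 7 members passed 0.05, beside 0 of 13222 genes (0%), and 0 of 7 had an unadjusted p under 0.05, beside 354 genes (2.68%). With the replicate number as a block, 0 of 7 members had an unadjusted p under 0.05, beside 4.96% of genes. The groups did not overlap in 0 of 7 members at the probe set that represents the gene, beside 5.85% of all genes (3.12% lower in Sox2cKO). These counts come from the comparison the genes were chosen with, and nothing is read from them. The median difference of the 7 was 0.06 on the log2 scale, with a range of -0.49 to 0.46, against a median near 0 (0.0027) over all genes tested. Of the 7 members 4 had a pooled within-group SD above the 90th percentile of all genes (0.43 log2 units), which describes the values they were chosen with. The same held for 6 of 18 other genes of the family, 6 of 9 targets of the plasmin cascade and 2 of 3 plasminogen activation inhibitors tested. Among marker lists it held for 7 of 9 fibroblast and pericyte genes, 6 of 11 suprabasal and 0 of 9 basal keratinocyte genes. For interferon response genes it was 3 of 8, for leukocyte genes 3 of 9 and for wound keratinocyte genes 2 of 8.

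**Figure D1:**
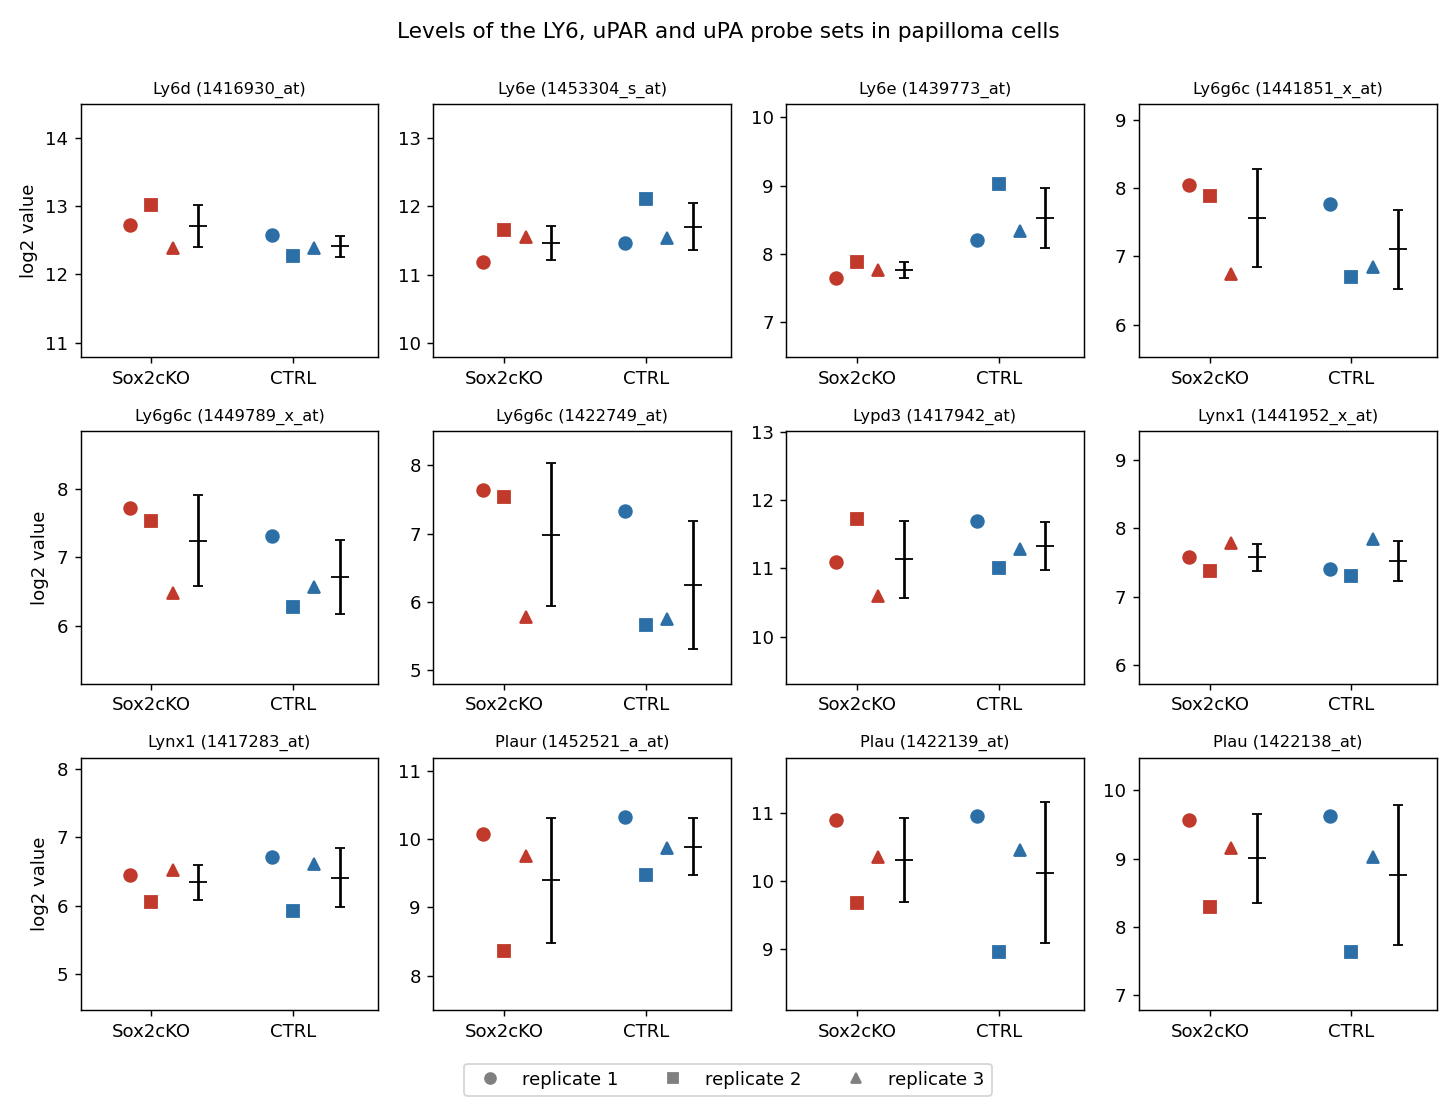
Deposited log2 value (vertical axis, 3.7 log2 units in every panel) of each of the 12 probe sets, with Sox2cKO arrays in red and CTRL arrays in blue; the symbol gives the replicate number and the black mark the group mean ± SD of 3 arrays. The groups overlap in every panel but that of the Ly6e probe set 1439773_at, and both Plau panels have their lowest point of each group in replicate 2.

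The receptor gene Plaur, read by 1 probe set (1452521_a_at), gave 10.08, 8.36 and 9.75 in Sox2cKO replicates 1 to 3, against 10.32, 9.48 and 9.87 in CTRL replicates 1 to 3. Sox2cKO replicate 2 stood below the other 5 arrays, and the other Sox2cKO arrays lay within the CTRL range. The means were 9.40 ± 0.91 in Sox2cKO and 9.89 ± 0.42 in CTRL cells (SD, n = 3 each), so that Sox2cKO minus CTRL was -0.49 (SE 0.44) in log2 units. Without Sox2cKO replicate 2 the difference was 0.03 and the pooled SD 0.37 in place of 0.71. Without Sox2cKO replicate 1 the difference was -0.83, without CTRL replicate 1 it was -0.28, and without CTRL replicate 2 it was -0.70. Between arrays of the same replicate number Plaur was lower in Sox2cKO each time, by -0.24, -1.12 and -0.12. At the probe sets that represent the 7 genes, Plaur was the 1 member with the same sign in all 3 pairs. Among all genes 24.9% had the same sign in all 3, and 12.7% were lower in all 3. Other probe sets of members had the same sign in all 3 pairs too. These were Ly6e 1439773_at (-0.56, -1.14 and -0.58) and Ly6g6c 1422749_at (0.31, 1.87 and 0.03).

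Among the probe sets that represent the 7 genes, that of the ligand gene Plau had the largest spread within a genotype. Its probe set 1422139_at read 10.89, 9.68 and 10.36 in Sox2cKO replicates 1 to 3, against 10.95, 8.96 and 10.46 in CTRL replicates 1 to 3. In both genotypes replicate 2 was the lowest array and replicate 1 the highest, and the arrays spanned 1.99 log2 units. The second probe set, 1422138_at, gave 9.57, 8.29 and 9.15 in Sox2cKO, against 9.62, 7.63 and 9.02 in CTRL cells, and ordered the 6 arrays in the same way except that Sox2cKO replicate 3 and CTRL replicate 3 changed places. The group means of the first were 10.31 ± 0.61 in Sox2cKO and 10.12 ± 1.04 in CTRL cells (SD, n = 3 each), a difference of 0.19 with a standard error of 0.53. Its pooled SD of 0.85 stood at the 98.5th percentile of all genes, and that of Plaur at the 97.5th. Without CTRL replicate 2 the Plau difference was -0.40, without CTRL replicate 1 it was 0.60, and without Sox2cKO replicate 1 it was -0.11, so its direction depended on single arrays.

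Plau and Plaur shared their high array in each genotype, replicate 1, and their low array, replicate 2, but the genotype with the lower replicate 2 was not the same. For Plau the replicate 2 arrays differed by 0.72 (higher in Sox2cKO), and for Plaur by -1.12 (lower in Sox2cKO). Replicates 1 and 3 differed by -0.06 and -0.10 for Plau and by -0.24 and -0.12 for Plaur. The labels do not say what a replicate number marks. Over all genes, deviations of arrays of 1 number from their group means were weakly correlated (0.206 to 0.288).

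**Figure D2:**
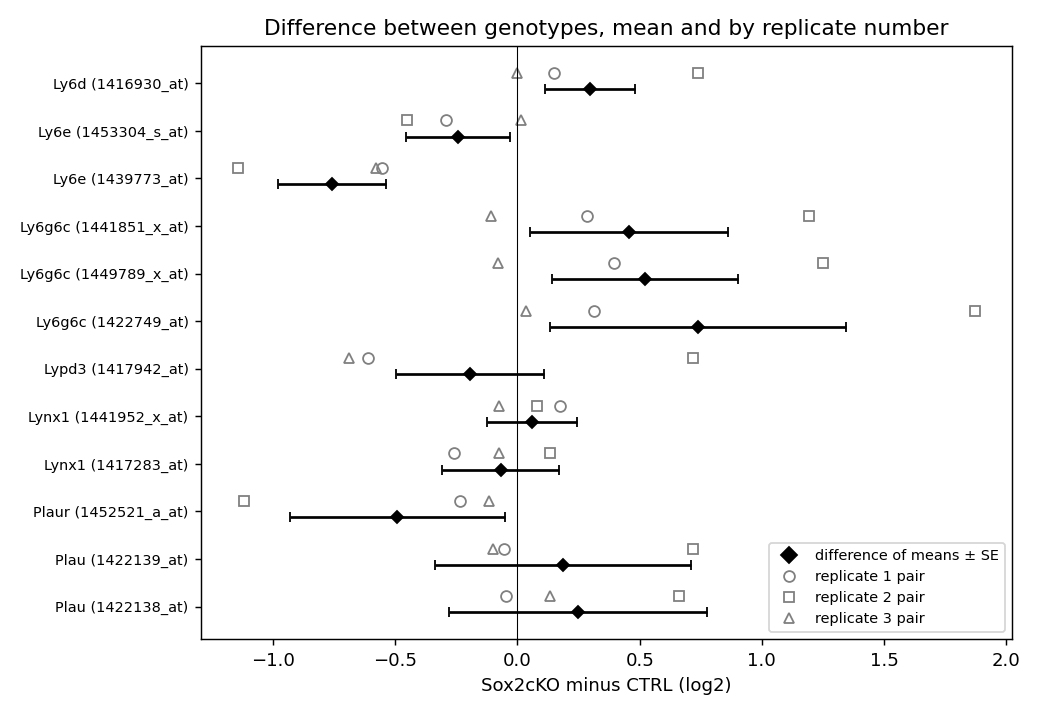
Sox2cKO minus CTRL on the log2 scale (horizontal axis) for the 12 probe sets: black diamonds are differences of group means with their standard error from limma over all tested probe sets, and open symbols are differences between arrays of the same replicate number. The replicate 2 pair lies farthest from 0 in every probe set but those of Lynx1, at 1.87 for Ly6g6c (1422749_at) and -1.12 for Plaur.

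Lypd3, the uPAR relative of suprabasal keratinocytes, read 11.09, 11.72 and 10.60 in Sox2cKO replicates 1 to 3, against 11.70, 11.00 and 11.29 in CTRL replicates 1 to 3. The lowest and the highest of the 6 arrays were both Sox2cKO arrays, with all CTRL values between them. The difference was -0.19 with a standard error of 0.30, and the 3 pairs gave -0.61, 0.72 and -0.69. Leaving out 1 array at a time gave 0.07 without Sox2cKO replicate 3, -0.01 without CTRL replicate 1, -0.36 without CTRL replicate 2 and -0.49 without Sox2cKO replicate 2. The pooled SD, 0.47, lay at the 91.8th percentile of all genes. Plaur and Lypd3 both lie on mouse chromosome 7, though neither is among the 3 nearest genes on either side of the other. Their array patterns differed: Sox2cKO replicate 2 was the lowest array for Plaur and the highest for Lypd3.

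Ly6g6c, a gene of the major histocompatibility complex region on chromosome 17 whose protein has no well-established role, split the arrays into high and low ones within each genotype. Probe set 1422749_at read 7.64, 7.53 and 5.78 in Sox2cKO replicates 1 to 3, against 7.33, 5.66 and 5.75 in CTRL replicates 1 to 3. Thus Sox2cKO replicates 1 and 2 and CTRL replicate 1 were high, the other 3 arrays were low, and the highest array exceeded the lowest 3.95-fold. Probe set 1441851_x_at, the one with the highest mean, read 8.05, 7.89 and 6.74 in Sox2cKO, against 7.76, 6.70 and 6.85 in CTRL cells, with the same 3 arrays high. So did probe set 1449789_x_at, at 7.72, 7.53 and 6.48 in Sox2cKO and 7.32, 6.28 and 6.56 in CTRL cells. The suffix _x_at marks probe sets that can bind several transcripts, and 1422749_at carries no such suffix.

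At the probe set with the highest mean, Ly6g6c averaged 7.56 ± 0.72 in Sox2cKO and 7.10 ± 0.58 in CTRL cells (SD, n = 3 each), a difference of 0.46 with a standard error of 0.41 and a pooled SD at the 96.7th percentile. Without Sox2cKO replicate 3 the difference was 0.87, without CTRL replicate 1 it was 0.79, and without Sox2cKO replicate 1 or CTRL replicate 2 it was 0.21 or 0.25. With a covariate for the Xist pattern, which sets the Sox2cKO arrays against CTRL replicate 1 alone, it was -0.21. Among 11 tested marker genes of suprabasal keratinocytes, 8 had the same 3 arrays highest, and Lor, Sbsn and Calml3 did not. The same held for 6 of 8 interferon response genes, 2 of 8 wound keratinocyte genes and 0 of 9 basal keratinocyte genes. The member Ly6d had these 3 arrays highest too, and the share over all genes was not counted. Of the 11 suprabasal genes, 11 had a positive difference and 0 were called, with a median of 0.33 beside a median near 0 over all genes. That median was -0.13 with the Xist covariate, 0.09 without CTRL replicate 2, 0.15 without Sox2cKO replicate 1, 0.50 without CTRL replicate 1 and 0.65 without Sox2cKO replicate 3. Their mean centred level was 0.46, 0.47 and -0.39 in Sox2cKO and 0.39, -0.55 and -0.37 in CTRL replicates 1 to 3. Krt10, a keratin of suprabasal cells, read 13.70, 13.65 and 12.41 in Sox2cKO, against 13.58, 12.44 and 13.06 in CTRL cells. Dsc1, a desmosomal cadherin gene of the upper epidermis, read 10.13, 9.93 and 7.47 in Sox2cKO, against 9.84, 7.74 and 7.85 in CTRL cells. Krt10 in CTRL replicate 3 lay between the high and the low arrays. Of 9 tested basal keratinocyte genes 0 were called, with a median difference of -0.001 and a range of -0.56 (Krt15, lower in all Sox2cKO arrays than in any CTRL array) to 0.09 (Itga6). The part of these genes in the Ly6g6c values was not tested.

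Ly6d, which encodes a LY6 protein known from stratified epithelia and early B cells, read 12.73, 13.01 and 12.38 in Sox2cKO replicates 1 to 3, against 12.58, 12.27 and 12.39 in CTRL replicates 1 to 3. Sox2cKO replicates 1 and 2 lay above all CTRL arrays and Sox2cKO replicate 3 lay within them. The difference was 0.30 with a standard error of 0.18. It was 0.15 without Sox2cKO replicate 2 and 0.46 without Sox2cKO replicate 3. Its sign was positive under all 15 alternatives run, several of which cannot change it. These are the replicate block, the changed filters, the trend and robust settings and, with 1 probe set, the mean of all probe sets. The within-group spread was ordinary, with a pooled SD of 0.25 at the 67.4th percentile.

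Ly6e, an interferon-inducible LY6 gene whose product limits infection by some viruses, was read by 2 probe sets that differed in size. Probe set 1439773_at read 7.65, 7.88 and 7.76 in Sox2cKO replicates 1 to 3, against 8.21, 9.03 and 8.34 in CTRL replicates 1 to 3. All Sox2cKO arrays lay below all CTRL arrays, which made it the 1 of 12 member probe sets whose groups did not overlap, beside 6.26% of tested probe sets with 1 gene (3.16% lower in Sox2cKO). The difference was -0.76 with a standard error of 0.22, or 1.69-fold lower. It was -0.45 with the covariate for the Xist pattern, and -0.51 to -0.92 when 1 array at a time was left out, without CTRL replicate 2 and without CTRL replicate 1 at the ends.

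The brighter Ly6e probe set, 1453304_s_at, read 11.18, 11.66 and 11.55 in Sox2cKO replicates 1 to 3, against 11.47, 12.11 and 11.54 in CTRL replicates 1 to 3. Here the groups overlapped, and CTRL replicate 2 alone stood above the other 5 arrays. The difference was -0.24 with a standard error of 0.21. It was -0.04 without CTRL replicate 2, -0.10 without Sox2cKO replicate 1 and -0.01 with the covariate for the Xist pattern. The suffix _s_at marks a probe set shared by several transcripts. Other interferon response genes had the opposite sign, with 8 of 8 tested at a positive difference and 0 called. Their median was 0.36 (Ifit1 1.17, Irf7 0.44, Bst2 0.04), beside a median near 0 over all genes. It was 0.11 without Sox2cKO replicate 2 and 0.10 with the Xist covariate.

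Lynx1, which encodes a GPI-anchored modulator of nicotinic acetylcholine receptors, differed least. Probe set 1441952_x_at read 7.58, 7.38 and 7.78 in Sox2cKO replicates 1 to 3, against 7.40, 7.30 and 7.85 in CTRL replicates 1 to 3. The groups overlapped fully, and in both genotypes replicate 2 was the lowest array and replicate 3 the highest. The difference was 0.06 with a standard error of 0.18. Probe set 1417283_at gave 6.45, 6.05 and 6.53 in Sox2cKO, against 6.71, 5.92 and 6.61 in CTRL cells, with a difference of -0.07. The gene table lists SLURP-2 as a synonym of Lynx1 and also as a gene of its own beside it, Slurp2, so which of these transcripts the probe sets read is uncertain. Of 8 nicotinic receptor subunit genes 3 passed the filter, with differences of 0.01 to 0.04 and 0 called, and Chrna7 lay below it.

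**Figure D3:**
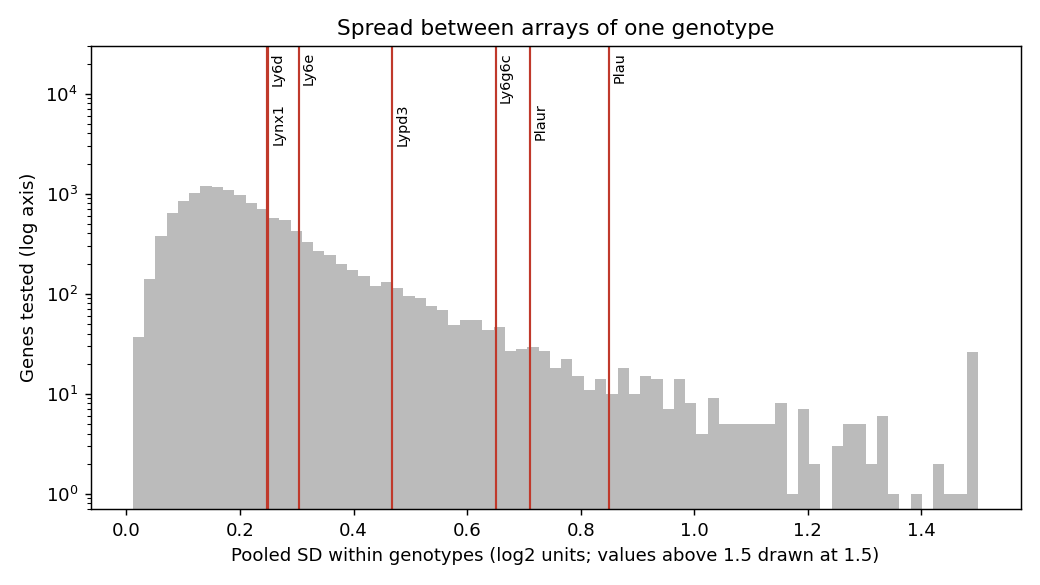
Number of genes (log axis) by pooled within-genotype SD of their log2 values (horizontal axis), over 13222 genes in grey, with a red line at each of the 7 members. Plau (0.85), Plaur (0.71), Ly6g6c (0.65) and Lypd3 (0.47) lie in the upper tail, and Ly6d, Lynx1 and Ly6e lie between 0.25 and 0.30.

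Of 40 other genes of the family, 24 had a probe set of their own and 18 were tested, of which 0 were called in either direction. Their median difference was -0.01, with 8 positive and 10 negative. Ly6m had the smallest unadjusted p of the list and read 7.82, 7.31 and 7.31 in Sox2cKO, against 7.33, 6.29 and 6.35 in CTRL cells. Its difference was 0.83 with a standard error of 0.30, and the groups overlapped by CTRL replicate 1. Psca, prostate stem cell antigen, was at -0.47 through CTRL replicate 2, which read 7.86 beside 6.31 to 6.65 in the other 5 arrays. Ly6k was at 0.70 through CTRL replicate 3, which read 5.57 beside 7.26 to 7.99 elsewhere.

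Of these 18 relatives, 5 had the same 3 arrays highest as Ly6g6c, Ly6g6e among them, and the share over all genes was not counted. Ly6g6e, which lies 2 genes from Ly6g6c in gene order, read 7.48, 7.85 and 6.05 in Sox2cKO, against 7.43, 6.64 and 6.12 in CTRL cells, with the same 3 arrays highest. Lypd5, also among the 5, read 7.01, 6.01 and 5.88 in Sox2cKO, against 6.78, 5.31 and 5.30 in CTRL cells. Its replicate 1 of each genotype stood above the rest. Slurp1, a secreted LY6 protein gene of keratinocytes, differed by 0.01, Lypd2 by -0.01, Cd59a, which encodes a complement inhibitor, by -0.09 and Gpihbp1, the lipoprotein lipase carrier of capillaries, by -0.24. No probe set used here names Ly6c1 or Ly6g alone.

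In the plasminogen system 0 of 29 tested genes were called on the 4 lists of activators and substrate (median -0.04), inhibitors (0.03), uPAR partners (0.08) and plasmin targets (0.05), beside a median near 0 over all genes. Plat, the gene of tissue plasminogen activator, read 7.99, 7.33 and 8.16 in Sox2cKO, against 7.11, 6.85 and 6.88 in CTRL cells. All its Sox2cKO values lay above all CTRL values, with a difference of 0.88 and a standard error of 0.22, but its second probe set was at -0.17. S100a10, which with Anxa2 binds plasminogen at the cell surface, read lower in all Sox2cKO arrays than in any CTRL array at a difference of -0.19, and the plasminogen receptor gene Plgrkt was at 0.13. Serpinb2, an inhibitor of urokinase, read 12.33, 11.22 and 12.17 in Sox2cKO, against 12.36, 11.00 and 12.53 in CTRL cells. As for Plau, replicate 2 was its lowest array in each genotype, and its difference was -0.06.

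Among uPAR partners Itga5, the fibronectin receptor subunit, read 6.19, 5.22 and 5.53 in Sox2cKO, against 6.48, 7.06 and 6.27 in CTRL cells. All Sox2cKO values lay below all CTRL values, at a difference of -0.95 with a standard error of 0.29, but its other 3 tested probe sets were at -0.06, -0.13 and -0.62. Itgb1 and Itgav differed by 0.02 each, and Lrp1, the receptor that clears urokinase bound to its inhibitors, by 0.37. Their other tested probe sets were at 0.47 and 0.02 for Itgb1, 0.24 and -0.14 for Itgav, and 0.24 for Lrp1. The matrix metalloproteinase gene Mmp9 was at -0.71 (-0.51 in its second probe set) and Mmp13 at 0.05. Mmp10 read 9.29, 7.97 and 9.47 in Sox2cKO, against 9.26, 7.94 and 8.79 in CTRL cells, again lowest in replicate 2 of each genotype. Mmp2 was at 0.84, beside a median of 1.30 for 9 fibroblast and pericyte genes, which was 0.67 without Sox2cKO replicate 3 and 0.79 with the Xist covariate. The mean centred level of those genes was -0.01, 0.16 and 1.61 in Sox2cKO, against -0.32, -0.27 and -1.16 in CTRL arrays, and their part in the values of Mmp2 and Plat was not tested.

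**Figure D4:**
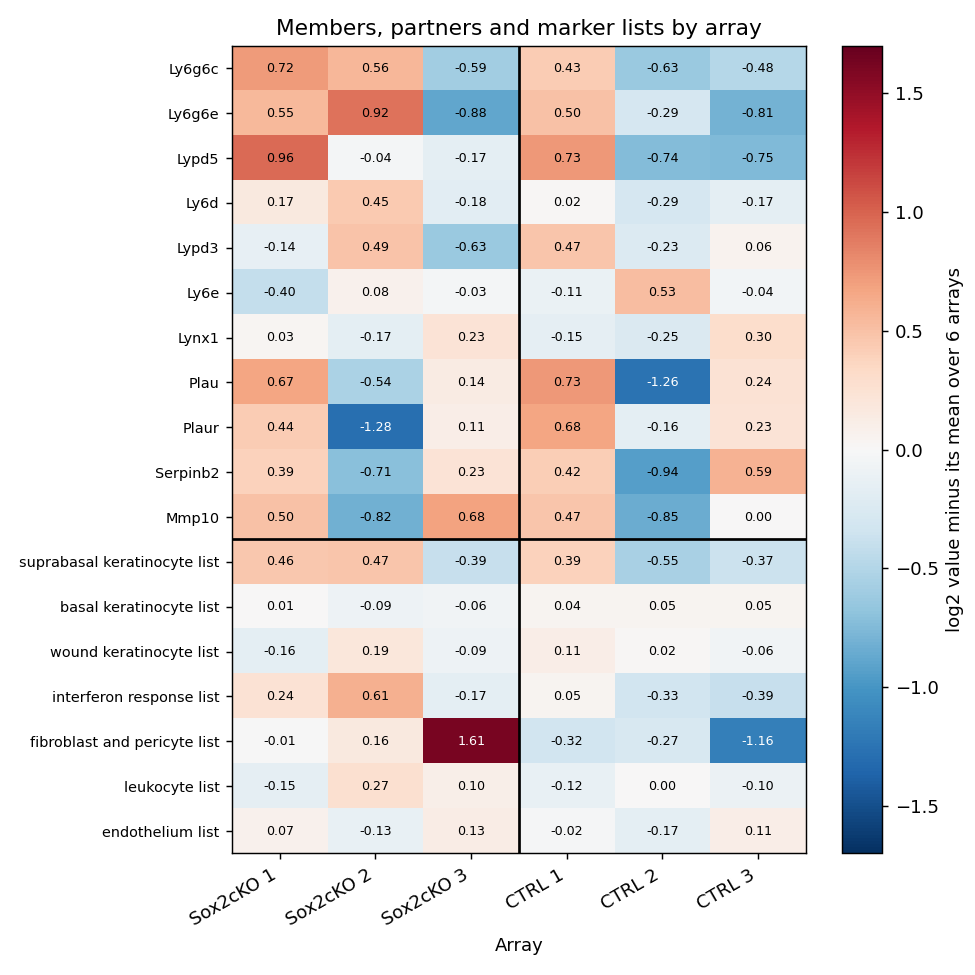
Log2 value minus its mean over the 6 arrays, for 7 members, 4 related genes and the means of 7 marker lists (rows), by array (columns, Sox2cKO left of CTRL); red is above and blue below the mean. Ly6g6c, Ly6g6e and the suprabasal list (0.46, 0.47 and 0.39 in Sox2cKO replicates 1 and 2 and CTRL replicate 1) are high in the same 3 arrays, and Plau, Serpinb2 and Mmp10 are lowest in replicate 2 of each genotype. Ly6d, Lypd5 and the interferon response list (0.24, 0.61 and 0.05 in those arrays) also have these 3 arrays highest.

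The genes with the array pattern most like that of each widely varying member were named by the root mean square difference of centred log2 values over 6 arrays. For Plaur they were Txnrd1 (0.15), which encodes thioredoxin reductase, Inhba (0.23), an activin subunit, and Lgals1 (0.27), galectin-1. Txnrd1 read 10.90, 9.21 and 10.61 in Sox2cKO, against 10.92, 10.38 and 10.38 in CTRL cells. For Plau they were Ifi202b (0.21), the amino acid transporter gene Slc6a14 (0.22) and Cpeb2 (0.22). Slc6a14 read 10.24, 8.75 and 10.01 in Sox2cKO, against 10.15, 8.62 and 9.82 in CTRL cells. For Ly6g6c they were Prxl2b (0.05), Marchf3 (0.08) and Slc10a6 (0.09), and for Lypd3 Dpm3 (0.08), Dennd11 (0.11) and Ldlrad4 (0.12). Prxl2b read 8.48, 8.40 and 7.29 in Sox2cKO, against 8.20, 7.13 and 7.27 in CTRL cells, with the same 3 arrays high as for Ly6g6c.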

How the data were processed

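Values were 6 columns of log2 values deposited by the authors, 1 per Affymetrix mouse whole-genome probe set and array. The log2 scale was read from their range. Per the submitters' processing notes R 2.14.0 was used, and background correction and normalization are not given in the sources used here. Array medians were 5.42 to 5.46. A shift shared by most genes would not be seen, and differences near background may be understated.

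Probe sets were named by the platform annotation. The fit took probe sets above the 40th percentile of the array (4.90 to 4.94) on 3 or more arrays, and the probe set with the highest mean stood for its gene. Differences are Sox2cKO minus CTRL, fitted with limma 3.58.1 in R 4.3.3 (Benjamini-Hochberg, threshold 0.05). The members and lists were chosen with earlier results of these data known. The text names all members, fixed genes of the lists, list genes of smallest p, and nearest patterns for members spanning at least 1 log2 unit. Lypd5, Mmp10, Dsc1, Bst2, Sbsn, Calml3, Laptm5 and Csf1r fall outside that rule and were picked once their values had been seen.

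The series text speaks of 3 biological experiments but not of separate mice, so p-values measure the spread between these arrays. Deviations from the group means were weakly correlated between arrays of the same replicate number (0.206 to 0.288, against -0.333 to 0.064 for other numbers). Such deviations cancel within a group, so positive values for the same number force lower ones for other numbers. The contrast is therefore partly built in. Differences between arrays of the same number are therefore given as well. The standard errors and calls come from the fit without pairing, and the replicate block was run as an alternative. In simulated data of 13222 genes for this comparison, 64% of genes changed by 1 log2 unit were recovered, 98% of those changed by 2 and 96% of those changed by 4, with 13 false calls. The simulated noise was independent between genes and arrays, unlike that of the real arrays, so these shares check the code and do not measure recovery here. On the real arrays Sox2, at -3.92, had an adjusted p of 0.316 in limma and was not called.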

Additional observations from a re-analysis of the deposited data

How the results depend on the processing

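Of 7 members 0 passed an adjusted p of 0.05 in limma under any of 15 alternatives, which were the replicate block, leaving out each array, the mean of all probe sets, no filter or a stricter one, 16 added on the linear scale, quantile normalization, median subtraction, limma with trend and robust settings, and a covariate for the Xist pattern. Over all genes the adjusted count was 0 to 5 when 1 array was left out, with 5 without CTRL replicate 1 (Sox2, Xist, Eif2s3y, Kdm5d and Uty), and 1 (Ostf1) with the Xist covariate. The unadjusted count was 354 genes, 656 with the replicate block, 94 with the Xist covariate and 200 to 637 with 1 array left out (200 without CTRL replicate 2, 632 without Sox2cKO replicate 2, 637 without CTRL replicate 1). Without CTRL replicate 1, every CTRL array left had the female Xist pattern and no Sox2cKO array did. In that setting genotype and sex pattern cannot be told apart, which holds for every difference given without CTRL replicate 1. The replicate block changed no call of a member. With the Xist covariate, which compares with CTRL replicate 1 alone, Plau was at -0.64, Plaur at -0.92, Lypd3 at -0.56, Lynx1 at 0.18 and Ly6d at 0.13. The replicate block, the changed filters and the trend and robust settings left the difference of every member as it was, so they could not change a sign. Lynx1 changed sign under 3 of 15 alternatives, Plau under 3, and Plaur, Lypd3 and Ly6g6c under 1 each, while Ly6d and Ly6e did not. The cause of these moves was not tested. With the stricter filter, the nicotinic receptor and endothelium lists had no tested gene. The number of arrays limits the precision, and no detection calls were analysed here.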

Other observations

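In gene order, 4 of the 8 listed genes (Ly6a, Ly6d, Ly6e and Lynx1) lie in a cluster on mouse chromosome 15, and the tested genes of that cluster had differences of both signs. In order along the chromosome, the differences between Sox2cKO and CTRL cells were 0.01 for Slurp1, -0.01 for Lypd2, 0.06 for Lynx1, 0.30 for Ly6d, 0.26 for Ly6g6g, 0.70 for Ly6k, 0.83 for Ly6m, -0.24 for Ly6e and -0.08 for Ly6i on the log2 scale. Around Plaur on chromosome 7, Kcnn4, which encodes a calcium-activated potassium channel, was at -0.46, Smg9 at 0.03, Irgc1 at 0.18, Cadm4, a cell adhesion molecule gene, at -0.62, Zfp428 at -0.38 and Irgq at 0.11. The groups overlapped in each of these neighbours. Around Plau on chromosome 14 the 6 nearest genes lay between -0.09 and 0.13.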
